A study of Mus musculus with 40 samples.

Results

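The myogenic regulatory factors Myod1, Myog, Myf5 and Myf6 and the satellite cell factor Pax7 were followed by mRNA sequencing in the extensor digitorum longus (EDL), a fast muscle of the mouse hindlimb. These 5 genes were taken by symbol from the 22844 genes of the deposited tables, and all 5 passed the filter on low values that left 13543 genes for testing. The 40 libraries came from 40 mice in 8 groups of 5, formed by genotype, age and treatment. TSCmKO mice carried floxed alleles of Tsc1 (strain label Tsc1tm1Djk/J) that are deleted in skeletal muscle. The Tsc1 protein normally holds back mTORC1, a kinase complex that promotes growth. The promoter that drives Cre is not given in the sources used here. Controls (CON) were littermates with the floxed Tsc1 alleles and no Cre, so that every mouse of both genotypes carried floxed Tsc1. Mice were 3 or 9 months old (3m, 9m) and received vehicle or the mTORC1 inhibitor rapamycin (+RM) by intraperitoneal injection for 3 days. The labels state 4 mg per kg, but a legend of the study states more than that, so the dose is uncertain.

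The myogenic regulatory factors are basic helix-loop-helix proteins that bind E-box DNA together with E proteins and switch on muscle genes. Myod1 and Myf5 commit precursor cells to the muscle lineage, Myog drives their terminal differentiation, and Myf6 (also called MRF4) is the family member known to dominate in adult fibers. Pax7 is a paired-box factor of satellite cells, the resident stem cells of muscle. In adult muscle Myog is also known to rise inside fibers that lose their nerve supply, where it activates acetylcholine receptor subunits and the ubiquitin ligases of atrophy.

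In the GRCm38 build with the GENCODE M21 annotation, all 5 were protein-coding genes, none overlapped another gene, and 0 of their 31-base words occurred in transcripts of other protein-coding genes, so that their reads could be placed. Myod1 (ENSMUSG00000009471) lies on the plus strand of chr7:46376474-46379099 and Myog (ENSMUSG00000026459) on the plus strand of chr1:134289989-134292548. Myf5 (ENSMUSG00000000435, chr10:107482908-107486134) and Myf6 (ENSMUSG00000035923, chr10:107492853-107494737) are neighbours on the minus strand, 6718 bases apart. Each of these 4 genes had 1 transcript of 3 exons, and the values per gene cover all exons. Pax7 (ENSMUSG00000028736, minus strand of chr4:139737062-139833528) had 2 transcripts of 9 exons.

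Total counts ran from 8883870 to 35224669 per library. Tsc1 was 1.55 to 1.99 lower on the log2 scale in TSCmKO than in CON in all 4 genotype comparisons, and no TSCmKO library reached the level of any CON library (at most 35.8 against at least 51.3 CPM, the counts of a gene scaled to a common library size). As a check of the labelled fast muscle, the sum of 8 fast fiber genes ranged from 79376 to 197649 CPM over the 40 libraries, and the sum of 7 slow fiber genes from 109 to 2851 CPM. The fast sum was 86399 to 103300 CPM in 9mTSCmKO, below the 142210 to 160877 CPM of 9mCON and the 138891 to 167653 CPM of 9mTSCmKO+RM, with no overlap. At 3 months it was 79376 to 160612 CPM in 3mTSCmKO, 110150 to 157384 CPM in 3mCON and 146450 to 175866 CPM in 3mTSCmKO+RM. The slow sum was 1060 to 2851 CPM in 9mTSCmKO, 802 to 1317 CPM in 9mTSCmKO+RM and 124 to 197 CPM in 9mCON. Fiber type genes thus moved in the comparisons in which Myf6, Myog and Myod1 are described below, and their part in those results was not tested. Markers of other cell types moved too. In 9mTSCmKO against 9mCON, 4 of 5 fibroblast markers fell (summed level 295 to 867 against 807 to 1535 CPM), as did 3 of 6 tendon markers (60.02 to 132 against 87.7 to 507 CPM), 3 of 5 endothelial markers (205 to 300 against 249 to 345 CPM) and 2 of 4 adipocyte markers (4.10 to 14.1 against 18.3 to 37.4 CPM), where 18.9% of all genes fell. In 9mCON+RM against 9mCON, 4 of 5 fibroblast markers fell (150 to 603 CPM with rapamycin), with 5 of 6 tendon markers (31.9 to 71.1 CPM) and 5 of 6 macrophage and leukocyte markers (13.2 to 37.5 against 45.5 to 131 CPM), where 6.82% of all genes fell. From 3mTSCmKO to 9mTSCmKO, 4 of 5 fibroblast markers fell (832 to 1373 CPM in 3mTSCmKO), with 4 of 6 tendon markers (170 to 454 CPM). So did 4 of 5 endothelial markers (296 to 336 CPM) and 4 of 4 adipocyte markers (20.5 to 99.0 CPM against 4.10 to 14.1 CPM in 9mTSCmKO). In that comparison 18.3% of all genes fell and 19.1% rose, with 1 tendon marker among those that rose. Of 6 macrophage and leukocyte markers, 1 rose and 1 fell there. Of these 5 lists, 1 tendon and 1 endothelial marker fell and 1 endothelial marker rose with rapamycin in 9mTSCmKO. Over all genes, 15.8% rose and 16.8% fell there. With rapamycin in 3mTSCmKO, 2 of 6 macrophage and leukocyte markers rose (75.2 to 143 against 53.8 to 115 CPM). There 1 of 5 fibroblast markers (1170 to 2144 CPM with rapamycin) and 1 of 6 tendon markers (297 to 568 CPM) rose too. In these 5 lists 0 markers fell in that comparison, where 10.6% of all genes rose and 13% fell. The part of the other cell types was not tested. Libraries of 3-month mice carry insert sizes of 175 to 239 nt on their labels and those of 9-month mice 223 to 308 nt, with none given for 9mTSCmKO+RM replicate 5, so that age and library preparation cannot be told apart. The 5 genes differ widely in counts per library, which sets the precision: 649 to 3194 for Myf6, 143 to 674 for Myod1, 6 to 228 for Myog, 18 to 109 for Myf5 and 21 to 111 for Pax7. In whole muscle, fewer cells of a type and less RNA per cell cannot be told apart.

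Per transcript length, Myf6 was by far the most abundant of the 5. In TPM, which corrects for transcript length, the medians over 40 libraries were 103 for Myf6, 15.8 for Myod1, 2.70 for Myog, 2.22 for Myf5 and 0.831 for Pax7. Myf6 exceeded Myod1 in every library, by at least 3.26 times in TPM. Myod1 exceeded Myog in every library other than 9mTSCmKO+RM replicate 5, where the ratio of Myod1 to Myog was 0.504. Of the summed TPM of the 4 myogenic regulatory factors, Myf6 made up 77.6 ± 1.84% (SD, n = 5) in 3mCON and 79.1 ± 2.87% in 9mCON. That share was 88.6 ± 3.08% in 3mTSCmKO and 90.2 ± 0.932% in 9mTSCmKO, and in each age no TSCmKO library overlapped a CON library given vehicle. After rapamycin it was 82.2 ± 2.39% in 3mTSCmKO+RM and 81.9 ± 3.25% in 9mTSCmKO+RM, below every vehicle library of the same genotype and age. These shares are a description and were not tested.

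**Figure D1:**
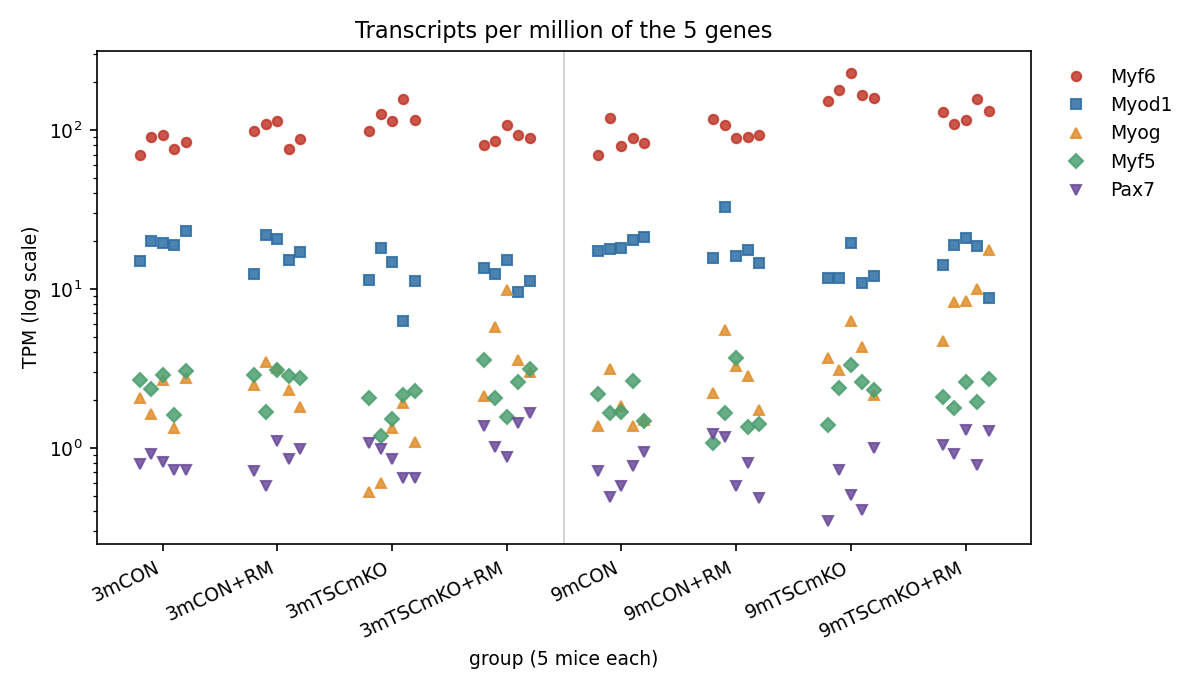
TPM of the 5 genes (log axis) in each of the 40 libraries, with 5 points per gene and group from replicate 1 on the left to replicate 5 on the right. Myf6 lies on top in every library and Pax7 at the bottom in most. The Myog points lie near the level of Pax7 in 3mTSCmKO and higher in 9mTSCmKO+RM, where they stay below Myod1 in every library but replicate 5.

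The 5 genes did not move in a common direction with loss of Tsc1 or with rapamycin. In 9mTSCmKO against 9mCON, 3 of the 5 passed the test (edgeR quasi-likelihood F-test, Benjamini-Hochberg adjusted p over all genes tested, threshold 0.05): Myf6 and Myog rose and Myod1 fell, where 37.9% of all genes were called. At 3 months 1 of 5 passed, a rise of Myf6, against 19.8% of all genes. Between genotypes under rapamycin, 1 of 5 (Myog, higher) passed at 9 months against 20.6% of all genes, and 0 of 5 at 3 months against 10% (3 of 5 at an unadjusted p under 0.05, and 0 by DESeq2 and by limma). Rapamycin in TSCmKO changed 3 of 5 at 9 months (Myog and Pax7 up, Myf6 down; 32.6% of all genes) and 2 of 5 at 3 months (Myog up, Myf6 down; 23.6%). In CON, edgeR called 0 of 5 with rapamycin at 9 months (11.8% of all genes) and 0 of 5 at 3 months (0.679%). Between ages, 0 of 5 were called in CON (1.02% of all genes). In these 3 comparisons of CON groups 0 of 5 had an unadjusted p under 0.05, and DESeq2 and limma also called 0. In TSCmKO 2 of 5 rose with age, Myog and Myf6 (37.4%). With 5 genes, these counts are read against the shares of all genes called and set nothing particular to the 5; each gene's own values follow.

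**Figure D2:**
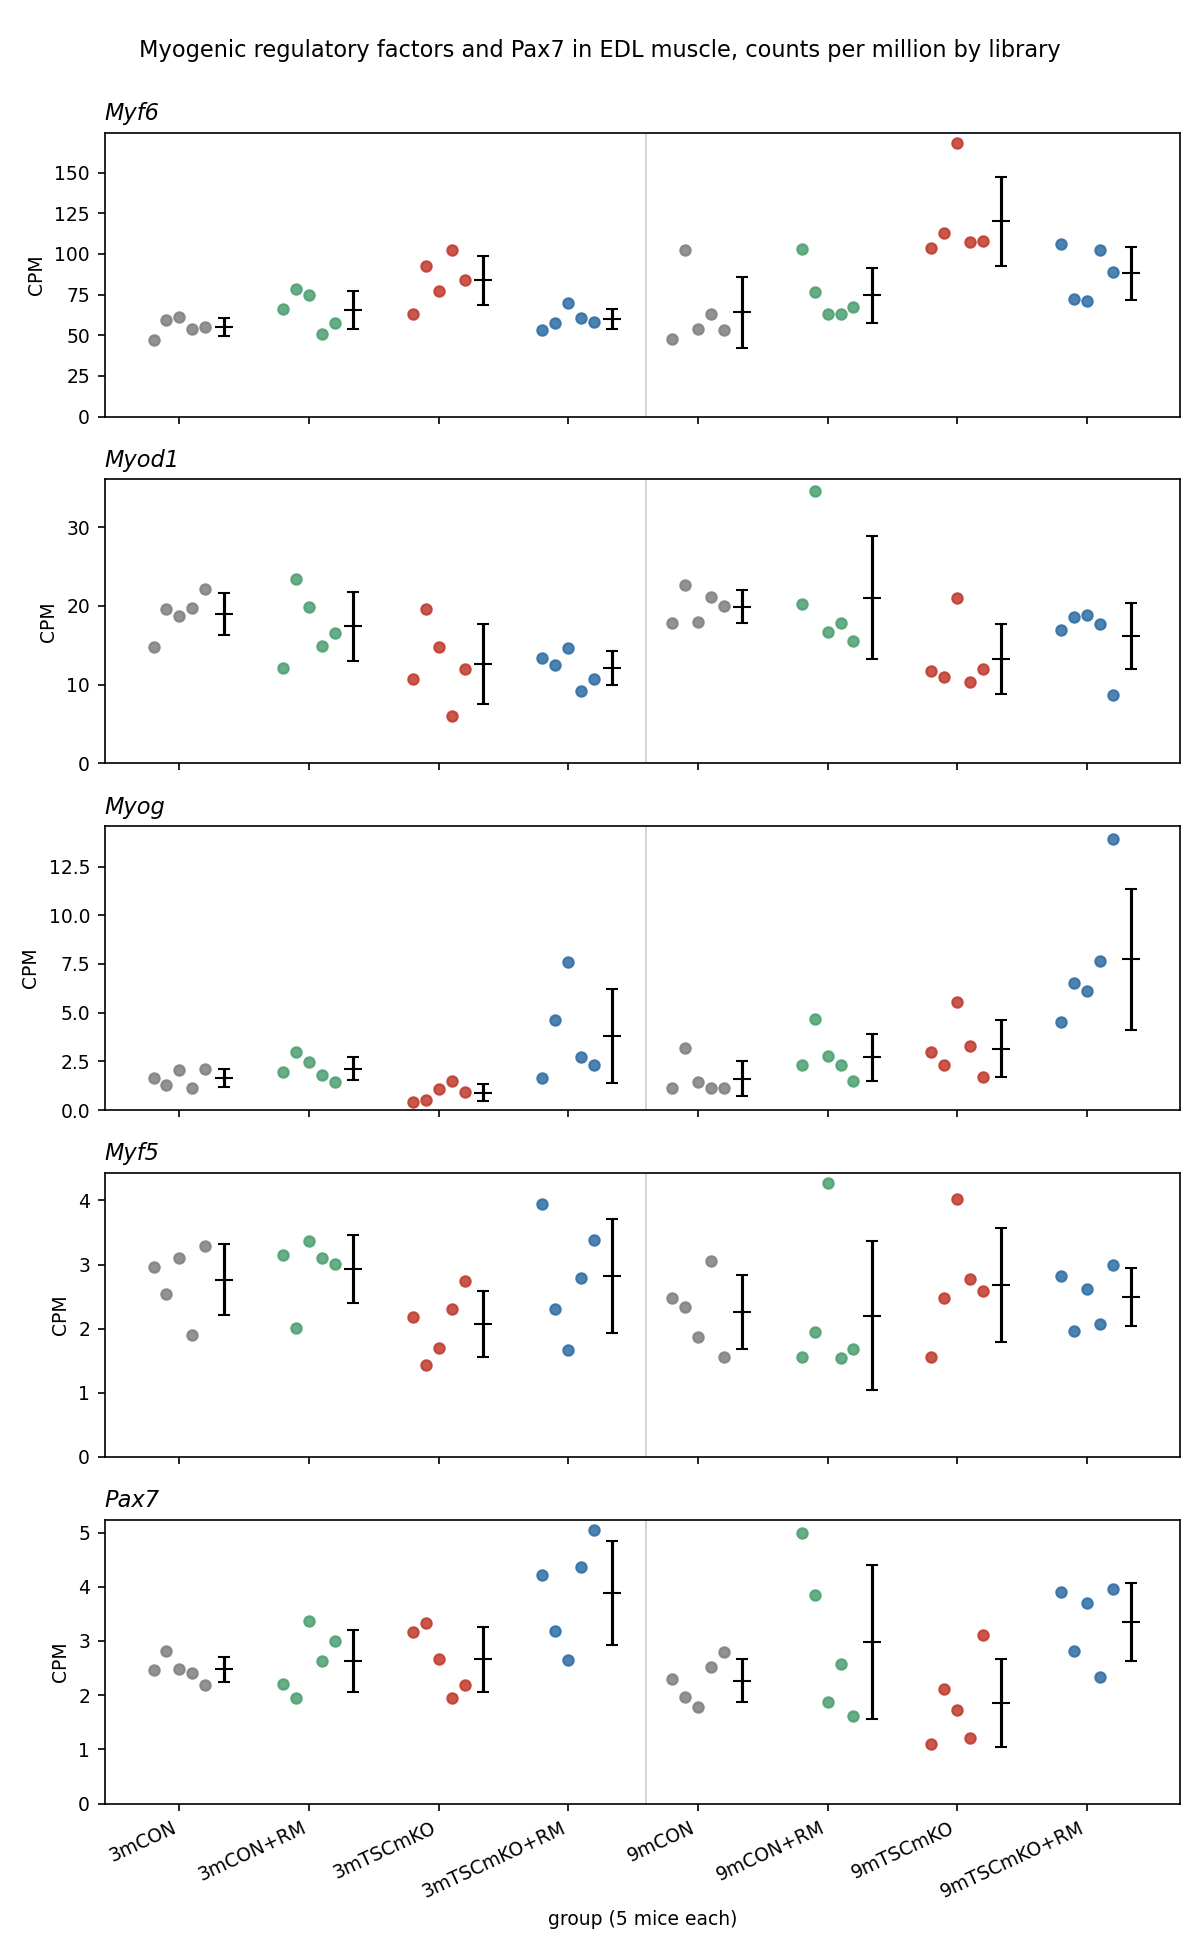
CPM of each gene (linear axes from 0) in the 8 groups, 1 point per library, with the mean ± SD of 5 libraries as a bar beside the points and colours for CON (grey), CON+RM (green), TSCmKO (red) and TSCmKO+RM (blue). The vehicle TSCmKO libraries lie above the vehicle CON libraries for Myf6 at both ages, and the TSCmKO+RM libraries are the highest group for Myog at 9 months.

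Myf6, the factor of mature fibers, was higher in vehicle TSCmKO than in vehicle CON at both ages, with no overlap. The 9mTSCmKO libraries held 104, 113, 168, 108 and 108 CPM (scaled by TMM factors), and the 9mCON libraries 48.0, 102, 53.5, 63.0 and 53.1 CPM. The log2 difference was 0.91 (SE 0.172, adjusted p = 5.63e-05), and replicate 3 of 9mTSCmKO and replicate 2 of 9mCON stood well above the rest of their groups. Without both, it was 0.99 (adjusted p = 3.66e-06). At 3 months, the TSCmKO values were 62.9, 92.3, 76.9, 102 and 83.9 CPM against 46.9, 59.5, 61.0, 53.9 and 54.8 CPM in CON. The log2 difference there was 0.60 (SE 0.171, adjusted p = 0.00981), and the highest CON library lay just under the lowest TSCmKO library. The 2 genotype effects were not shown to differ (difference 0.31, SE 0.241, adjusted p = 0.509).

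Rapamycin lowered Myf6 in TSCmKO at both ages. The 9mTSCmKO+RM libraries were at 106, 72.6, 70.9, 102 and 88.8 CPM, so that 4 of 5 lay below every 9mTSCmKO library, a log2 change of -0.45 (SE 0.17, adjusted p = 0.0412). The 3mTSCmKO+RM libraries were at 53.4, 57.8, 69.8, 60.4 and 58.4 CPM, with 4 of 5 below every 3mTSCmKO library, a change of -0.48 (SE 0.171, adjusted p = 0.0354). Both falls were near the threshold. At 9 months the call was lost without 9mTSCmKO replicate 3 (-0.30, adjusted p = 0.188), without 9mTSCmKO+RM replicate 2 (-0.38, 0.111), 3 (-0.38, 0.115) or 5 (-0.45, 0.0618), and without both libraries that stood apart (-0.29, 0.116). It was also lost with no low-count filter (adjusted p = 0.0707), with only the compared groups (adjusted p = 0.0751), with the replicate block (adjusted p = 0.053) and with insert size as a term (adjusted p = 0.0615). At 3 months it was lost with upper-quartile factors (adjusted p = 0.0546), with insert size as a term (adjusted p = 0.0551) and in 7 of 10 fits that left out a library of the comparison, all except those without 3mTSCmKO replicate 1 or 3 or 3mTSCmKO+RM replicate 3, with adjusted p up to 0.123.

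In CON the Myf6 differences after rapamycin were positive and did not pass, at 0.22 at 9 months (SE 0.171, adjusted p = 0.469) and 0.24 at 3 months (SE 0.172, adjusted p = 0.772). The difference between the rapamycin effects in TSCmKO and CON was -0.67 at 9 months (SE 0.242, adjusted p = 0.0989) and -0.73 at 3 months (SE 0.242, adjusted p = 0.095), of 4.87% and 3.45% of all genes called, and neither passed. At 9 months the value passed without 9mCON replicate 2 (-0.90, adjusted p = 0.01). Without both libraries that stood apart, Myf6 rose by 0.45 on the log2 scale with rapamycin in 9mCON (adjusted p = 0.0338). Under rapamycin the genotypes differed by 0.24 at 9 months (SE 0.171, adjusted p = 0.355) and -0.13 at 3 months (SE 0.171, adjusted p = 0.767), with overlapping groups. Myf6 also rose from 3mTSCmKO to 9mTSCmKO, by 0.52 (SE 0.17, adjusted p = 0.0156), with no overlap, and this call was lost without 9mTSCmKO replicate 3 (0.38, adjusted p = 0.0825).

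Myog, the differentiation factor, had the widest range of the 5 genes across groups relative to its lowest group mean, from a mean of 0.881 ± 0.435 CPM (SD, n = 5) in 3mTSCmKO to 7.74 ± 3.62 CPM in 9mTSCmKO+RM. For the gene with this range, the 235 bases upstream of its annotated start are shown (RefSeq promoter table, GRCm38.p6, plus strand, chr1:134289754-134289988, 5′ to 3′). Capitals mark every match on either strand of the E-box CANNTG, which myogenic factors bind, and of CTANNNNTA, a form of the MEF2 site. Both motifs were chosen with the sequence in view, and they do not overlap.

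Myog upstream: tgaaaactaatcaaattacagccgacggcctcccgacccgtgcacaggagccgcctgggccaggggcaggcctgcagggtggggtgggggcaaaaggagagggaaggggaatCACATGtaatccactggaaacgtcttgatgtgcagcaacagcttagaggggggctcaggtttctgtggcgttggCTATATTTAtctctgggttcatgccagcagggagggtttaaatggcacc

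The single E-box starts 123 bases and the single MEF2-type match 49 bases before the annotated start. Of 32851 promoters of the table, read over the 235 bases at the upstream end of each entry, 64.1% held the E-box letters, 18.2% the MEF2-type letters and 12.1% both. The matches are a description of the sequence and no measure of binding. The table also held Myf5 and Pax7, whose promoters are not printed, and Myod1 and Myf6 were not matched.

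In vehicle muscle, Myog rose with loss of Tsc1 at 9 months and was lower, without passing the test, at 3 months. At 9 months the TSCmKO libraries held 2.96, 2.29, 5.53, 3.29 and 1.71 CPM against 1.12, 3.17, 1.46, 1.15 and 1.14 CPM in CON, a log2 difference of 0.996 (SE 0.391, adjusted p = 0.0416). The groups overlapped only through 9mCON replicate 2. Counts were small, 39 to 99 in 9mTSCmKO and 18 to 42 in 9mCON, and the call was lost in 7 of 10 fits that left out a library, all except those without 9mCON replicate 2 or 9mTSCmKO replicate 2 or 5. The lowest value was 0.70 (adjusted p = 0.173), without 9mTSCmKO replicate 3. It was also lost with no low-count filter (adjusted p = 0.0633) and with only the compared groups (adjusted p = 0.0804). At 3 months, the TSCmKO libraries held 0.395, 0.523, 1.08, 1.47 and 0.936 CPM against 1.62, 1.27, 2.07, 1.13 and 2.11 CPM in CON, a difference of -0.81 (SE 0.416) that did not pass (adjusted p = 0.177). The difference between the genotype effects was 1.81 (SE 0.571, adjusted p = 0.057, with 4.94% of all genes called) and just missed the threshold. It passed without 3mTSCmKO replicate 4 (2.12, adjusted p = 0.0272), 9mCON replicate 2 (2.19, 0.0183), 9mTSCmKO replicate 2 (1.88, 0.0466) or 9mTSCmKO replicate 5 (1.95, 0.0322). Within vehicle TSCmKO, Myog rose with age by 1.76 (SE 0.399, adjusted p = 0.000781), with no overlap between ages, while in CON the difference was -0.05 (SE 0.409, adjusted p = 0.966). The markers of other cell types that moved with age in TSCmKO are given above, and their part in this rise and in that of Myf6 was not tested.

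Rapamycin raised Myog in TSCmKO at both ages. The 3mTSCmKO+RM libraries held 1.67, 4.62, 7.60, 2.75 and 2.31 CPM, all above the highest 3mTSCmKO library, for a log2 rise of 2.02 (SE 0.395, adjusted p = 0.000177). The 9mTSCmKO+RM libraries held 4.54, 6.51, 6.09, 7.65 and 13.9 CPM, and 4 of 5 exceeded every 9mTSCmKO library. The rise at 9 months was 1.30 (SE 0.358, adjusted p = 0.00488). Over the fits without a library, the rise at 3 months stayed between 1.62 and 2.31 and that at 9 months between 0.98 and 1.60, past the threshold in each. The markers of other cell types that moved with rapamycin in TSCmKO are given above, and their part in these rises was not tested.

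In CON, Myog values after rapamycin were 1.95, 2.98, 2.47, 1.82 and 1.41 CPM at 3 months and 2.30, 4.68, 2.75, 2.32 and 1.48 CPM at 9 months. Both CON groups overlapped their vehicle groups, and the differences of 0.35 (SE 0.4, adjusted p = 0.921) and 0.80 (SE 0.398, adjusted p = 0.21) did not pass. Without both libraries that stood apart, the value at 9 months was 1.18 (adjusted p = 0.0448). The rapamycin effect in TSCmKO minus that in CON was 1.67 at 3 months (SE 0.562, adjusted p = 0.0995) and 0.50 at 9 months (SE 0.536, adjusted p = 0.638), so that a difference in the effect between genotypes was not shown. Under rapamycin, Myog was higher in TSCmKO than in CON at 9 months by 1.498 (SE 0.366, adjusted p = 0.00237), and gave 0.86 (SE 0.377, adjusted p = 0.165) at 3 months. Myog and Myf6 thus moved in opposite directions under rapamycin in TSCmKO at each age.

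Myod1, a determination factor that also stays on in adult fast fibers, fell with loss of Tsc1 at 9 months, close to the threshold. The 9mTSCmKO libraries held 11.8, 10.9, 21.1, 10.3 and 11.9 CPM against 17.8, 22.6, 17.9, 21.1 and 20.04 CPM in 9mCON. The 2 groups overlapped only through 9mTSCmKO replicate 3, and the log2 difference of -0.59 (SE 0.237, adjusted p = 0.0454) became -0.82 (adjusted p = 0.00753) without it. The call was lost in 8 of 10 fits that left out a library, all except those without 9mTSCmKO replicate 3 or 9mCON replicate 1, with adjusted p up to 0.106 (without 9mTSCmKO replicate 4). It was also lost with DESeq2 size factors (adjusted p = 0.0507), with no low-count filter (adjusted p = 0.0561) and by limma at both pseudocounts (adjusted p = 0.0551 and 0.0563). At 3 months, TSCmKO held 10.7, 19.6, 14.8, 5.98 and 12.0 CPM against 14.8, 19.6, 18.7, 19.8 and 22.1 CPM in CON, a difference of -0.60 (SE 0.237, adjusted p = 0.0698). It passed without 3mTSCmKO replicate 2 (-0.81, adjusted p = 0.0157).

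Rapamycin did not move Myod1 past the threshold in any group. The log2 values were 0.29 (SE 0.237, adjusted p = 0.362) in 9mTSCmKO, -0.05 (SE 0.238, adjusted p = 0.904) in 3mTSCmKO, 0.08 (SE 0.235, adjusted p = 0.872) in 9mCON and -0.13 (SE 0.236, adjusted p = 0.966) in 3mCON. In 9mTSCmKO+RM the libraries held 17.0, 18.6, 18.8, 17.7 and 8.72 CPM, so that 4 of 5 lay above all 9mTSCmKO libraries but replicate 3, and replicate 5, the lowest, was the library with the highest Myog. In 9mCON+RM a single library reached 34.7 CPM, where the other 4 held 15.6 to 20.2 CPM.

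The ratio of Myf6 to Myod1 TPM within a library separated the vehicle genotypes without overlap at both ages. It was 3.65 to 4.82 in 3mCON against 6.94 to 25.2 in 3mTSCmKO, and 3.90 to 6.66 in 9mCON against 11.8 to 15.3 in 9mTSCmKO. In 9mTSCmKO this ratio varied little, at 13.7 ± 1.52 (SD, n = 5), and replicate 3 was high in both genes. After rapamycin it was 5.89 to 9.73 in 3mTSCmKO+RM and 5.55 to 15 in 9mTSCmKO+RM, with means of 7.502 and 8.81. The ratio was formed after the values of both genes were seen and was not tested.

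**Figure D3:**
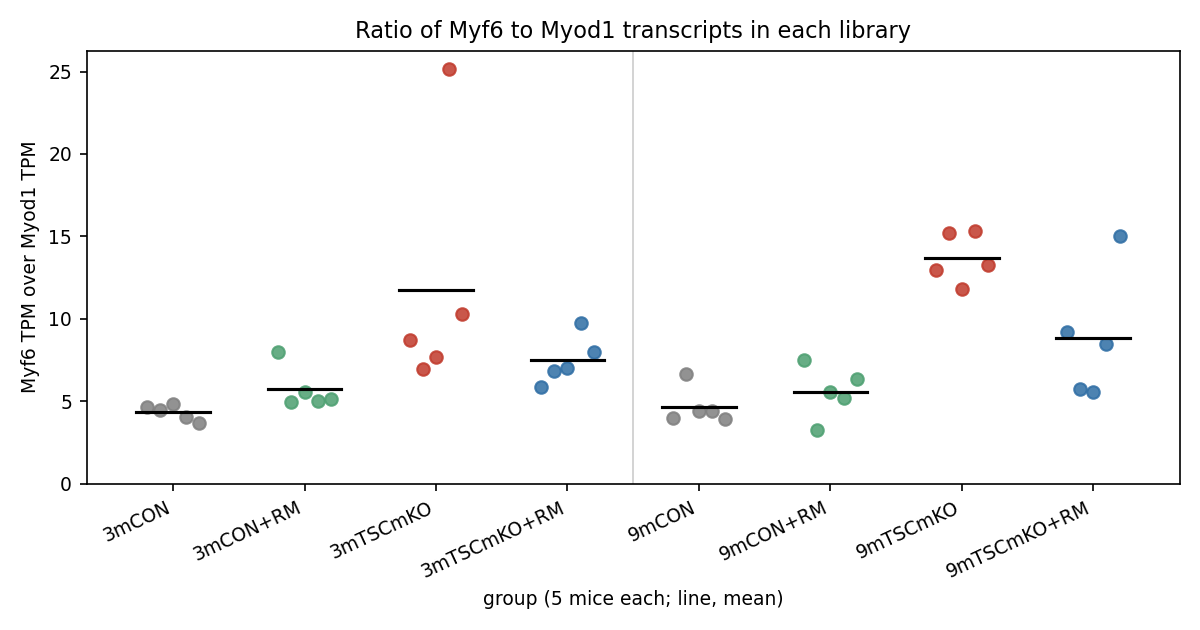
Ratio of Myf6 TPM to Myod1 TPM (linear axis from 0) in each library of the 8 groups, with the mean of 5 libraries as a line. The 9mTSCmKO points sit between 11.8 and 15.3, above all 9mCON points, and the highest single ratio, 25.2, belongs to a 3mTSCmKO library.

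Pax7, the satellite cell factor, rose with rapamycin in 9mTSCmKO. The 9mTSCmKO libraries held 1.09, 2.12, 1.73, 1.21 and 3.11 CPM and the 9mTSCmKO+RM libraries 3.91, 2.82, 3.70, 2.34 and 3.96 CPM, overlapping through 9mTSCmKO replicate 5. The log2 rise was 0.84 (SE 0.259, adjusted p = 0.0116) and passed in all 10 fits without a library. It missed the threshold when the spread was estimated from these 2 groups alone (0.83, adjusted p = 0.0704). At 3 months the values were 3.16, 3.33, 2.67, 1.95 and 2.20 CPM with vehicle and 4.22, 3.19, 2.64, 4.36 and 5.04 CPM with rapamycin, a difference of 0.56 (SE 0.248, adjusted p = 0.0975). Differences after rapamycin in CON were 0.39 at 9 months (SE 0.261, adjusted p = 0.38) and 0.09 at 3 months (SE 0.26, adjusted p = 0.986). The genotype differences in vehicle muscle were -0.29 at 9 months (SE 0.265, adjusted p = 0.399) and 0.09 at 3 months (SE 0.256, adjusted p = 0.848). From 3mTSCmKO to 9mTSCmKO the difference was -0.49 (SE 0.259, adjusted p = 0.133), which became -0.78 (adjusted p = 0.0204) without 9mTSCmKO replicate 5. In 3mCON, the spread of Pax7 between libraries (9.06%) was below that expected from counting alone (15.7%).

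Myf5, which marks committed satellite cells, was called in 0 of the 10 comparisons of groups by edgeR, with an unadjusted p under 0.05 in 0, and in 0 by DESeq2 and limma. Its group means ran from 2.07 ± 0.512 CPM (SD, n = 5) in 3mTSCmKO to 2.93 ± 0.53 CPM in 3mCON+RM. Libraries ranged from 1.44 CPM to 4.27 CPM, and all neighbouring groups in that order overlapped. Its log2 differences between groups had a range of -0.39 to 0.43. With 18 to 109 counts per library, counting alone gave a spread between libraries of 13.7 to 19.1% within groups. Its genomic neighbour Myf6 rose by 0.91 in the comparison of 9mTSCmKO with 9mCON, where Myf5 differed by 0.24 (SE 0.262, adjusted p = 0.493).

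Other satellite cell markers gave no common direction beside Pax7. Of 11 markers, all tested and Pax7 and Myf5 among them, 3 rose and 2 fell with rapamycin in 9mTSCmKO (median log2 difference -0.11, against -0.04 over all genes). Over all genes, 15.8% rose and 16.8% fell in that comparison. The same list had 1 rise with rapamycin in 3mTSCmKO, where 10.6% of all genes rose, 1 in 9mCON, where 5.03% rose, and 1 in 3mCON, where 0.362% rose. Cdh15, the M-cadherin gene of satellite cells and the neuromuscular region, rose with rapamycin by 1.30 (SE 0.162, adjusted p = 8.92e-08) in 9mTSCmKO, 1.28 (SE 0.161, adjusted p = 1.28e-07) in 3mTSCmKO, 1.19 (SE 0.161, adjusted p = 4.62e-06) in 9mCON. In 3mCON the value was 0.63 (SE 0.16, adjusted p = 0.0486), and this call was lost with DESeq2 size factors and with no low-count filter. The summed level of the 9 markers other than Pax7 and Myf5 was 104 to 144 CPM in 9mTSCmKO and 106 to 135 CPM in 9mTSCmKO+RM, so that it did not separate the groups in which Pax7 rose. Of 6 proliferation genes, 2 reached the filter (Top2a and Birc5), and both fell with rapamycin in 9mTSCmKO, where 16.8% of all genes fell. Of these 2, 1 rose and 0 fell in 9mTSCmKO against 9mCON, and likewise from 3mTSCmKO to 9mTSCmKO. In each of these comparisons 19.1% of all genes rose. Mki67, the defining marker of cycling cells, named like the other two after its values were seen, had at most 3 counts in any library. The part of these cells in the results was not tested.

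**Figure D4:**
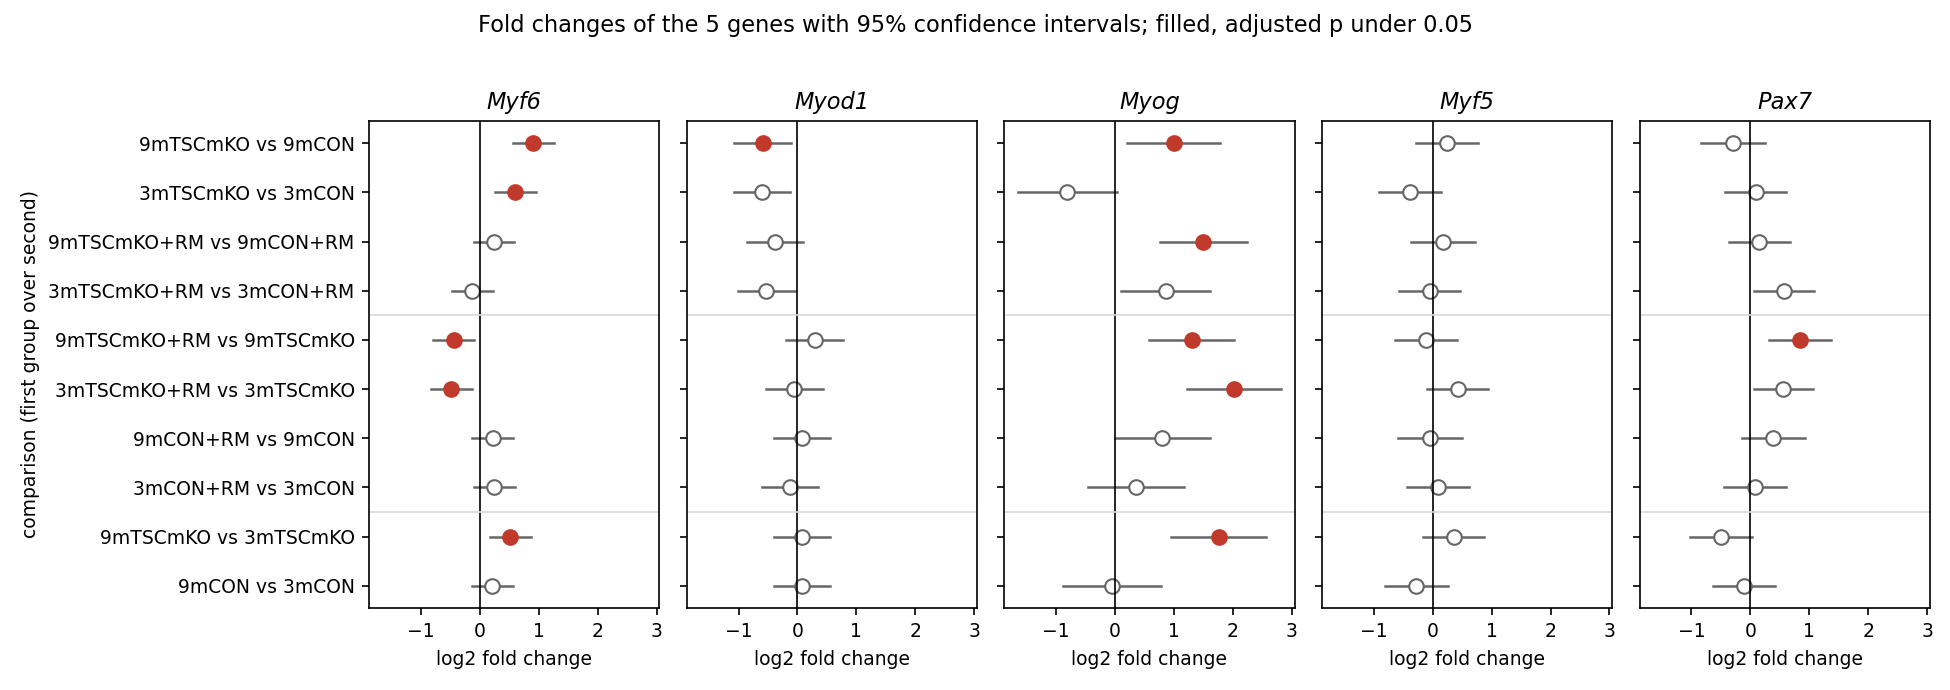
Log2 fold changes of the 5 genes (horizontal axis) in the 10 comparisons of groups (rows, the first group over the second), with 95% confidence intervals that are not adjusted for the number of genes; filled points passed the adjusted p threshold of 0.05. Myf6 is filled to the right for vehicle genotype and for age in TSCmKO and to the left for rapamycin in TSCmKO, Myog is filled to the right in 5 rows, and Myf5 in none.

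When groups were ordered by mean CPM, every pair of neighbours in the order overlapped for each of the 5 genes. The order nevertheless differed by gene. Myf6 was highest in 9mTSCmKO (120 ± 27.2 CPM) and lowest in 3mCON (55.2 ± 5.54 CPM). Myod1 had its 4 highest means in the 4 CON groups, from 21.0 ± 7.82 CPM in 9mCON+RM to 17.4 ± 4.38 CPM in 3mCON+RM, and its lowest in 3mTSCmKO+RM at 12.1 ± 2.16 CPM. Myog had its highest means in both TSCmKO+RM groups and its lowest in 3mTSCmKO. Pax7 had its 3 highest means in rapamycin groups, led by 3mTSCmKO+RM at 3.89 ± 0.961 CPM, and its lowest in 9mTSCmKO at 1.85 ± 0.813 CPM.

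Within groups, most pairs of the 5 genes were not shown to vary together. After removal of group means from log2 CPM, 1 of 10 pairs passed over the 40 libraries, Myog with Myf6 (Pearson r = 0.53, permutation p = 0.00189, adjusted p = 0.0189; Spearman rho = 0.44, permutation p = 0.00803, adjusted p = 0.0803). Without the 2 libraries farthest from the median in Myog, r was 0.39 (permutation, adjusted p = 0.131), so that the relation rests in part on them. Within the 20 libraries of each age, r was 0.60 at 3 months (permutation, adjusted p = 0.0318) and 0.50 at 9 months (permutation, adjusted p = 0.397). Myod1 correlated with Myog at 0.11 (permutation, adjusted p = 0.926) and with Myf6 at 0.28 (permutation, adjusted p = 0.359). Without the 2 libraries farthest from the median of Myod1 these became 0.51 with Myog and 0.52 with Myf6 (permutation, adjusted p = 0.0221 for both). Myog and Pax7 gave -0.32 over all libraries (permutation, adjusted p = 0.359), -0.76 within 3 months (permutation, adjusted p = 0.0153) and -0.07 within 9 months (permutation, adjusted p = 0.98). Replicate 3 of 9mTSCmKO had the highest value of its group for 4 genes, Myod1, Myog, Myf5 and Myf6.

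Among partners of the factors, E proteins and MEF2 proteins, 6 of 6 were tested, and 1 rose and 1 fell in 9mTSCmKO against 9mCON (median -0.05, against -0.02 over all genes), where 19.1% of all genes rose and 18.9% fell. The E protein genes Tcf3 and Tcf12 gave 0.04 (SE 0.122, adjusted p = 0.847) and -0.14 (SE 0.113, adjusted p = 0.332). Mef2c, a cofactor of myogenic factors, rose by 0.91 at 9 months (SE 0.166, adjusted p = 3.5e-05) and 0.56 at 3 months (SE 0.165, adjusted p = 0.0132). Mef2d rose at 3 months by 0.32 (SE 0.102, adjusted p = 0.0221) and gave 0.21 (SE 0.102, adjusted p = 0.102) at 9 months. Of these 6, rapamycin in 9mTSCmKO raised 1, Tcf12, by 0.30 (SE 0.113, adjusted p = 0.0396), where 15.8% of all genes rose. That call was lost with no low-count filter.

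Of 15 inhibitors of myogenic factor activity, 4 rose and 2 fell in 9mTSCmKO against 9mCON (median -0.10), and 2 rose and 2 fell at 3 months (median -0.19). Over all genes, 19.1% rose and 18.9% fell at 9 months (median -0.02), and 11.4% rose and 8.32% fell at 3 months (median -0.02). Id2, which sequesters E proteins, rose at 9 months by 0.86 (SE 0.274, adjusted p = 0.0123), while Id1 gave -0.10 (SE 0.3, adjusted p = 0.821) and Id3 0.17 (SE 0.237, adjusted p = 0.608). Dach2, a repressor of Myog, was lower in TSCmKO at 3 months (log2 difference -1.58, SE 0.53, adjusted p = 0.03) and gave -1.22 (SE 0.525, adjusted p = 0.0642) at 9 months. With rapamycin, 2 of the 15 rose and 3 fell in 9mTSCmKO (median -0.25), where 15.8% of all genes rose and 16.8% fell. In 3mTSCmKO 2 rose and 1 fell (10.6% and 13% of all genes), and in 9mCON 1 rose and 1 fell (5.03% and 6.82%). Hdac4, the deacetylase that acts on Dach2 in denervated fibers, rose with rapamycin by 0.51 (SE 0.175, adjusted p = 0.0233) in 9mTSCmKO, 0.72 (SE 0.174, adjusted p = 0.00195) in 3mTSCmKO and 0.63 (SE 0.175, adjusted p = 0.0139) in 9mCON.

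Of 11 upstream regulators of the myogenic factor genes, 0 rose and 3 fell in 9mTSCmKO against 9mCON (median -0.36), where 19.1% of all genes rose and 18.9% fell (median -0.02). With rapamycin in 9mTSCmKO 4 of them rose and 2 fell (median -0.02), against 15.8% and 16.8% of all genes (median -0.04). Six4, a homeobox activator of Myog, rose with rapamycin in 9mTSCmKO by 0.50 (SE 0.17, adjusted p = 0.0213).

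Of 15 known targets of the factors in fibers, 11 rose and 2 fell in 9mTSCmKO against 9mCON (median 0.69, against -0.02 over all genes), where 19.1% of all genes rose and 18.9% fell. At 3 months, 2 of the 15 rose and 2 fell in 3mTSCmKO against 3mCON (median -0.37, against -0.02 over all genes), where 11.4% of all genes rose and 8.32% fell. With rapamycin in 9mTSCmKO, where Myog rose, 3 of these 15 rose and 8 fell (median -0.55), against 15.8% and 16.8% of all genes (median -0.04). With rapamycin in 3mTSCmKO 6 rose and 2 fell (median 0.46), against 10.6% and 13% of all genes (median 0.0099). Chrng, the fetal acetylcholine receptor subunit, had 1.53 to 6.98 CPM in 9mTSCmKO and at most 0.488 CPM in the libraries of 9mTSCmKO+RM, a fall (log2 difference -3.26, SE 0.478, adjusted p = 1.65e-06). Chrna1, the receptor's alpha subunit, gave -0.26 (SE 0.157, adjusted p = 0.2) in that comparison and rose by 0.46 (SE 0.158, adjusted p = 0.0286) with rapamycin in 3mTSCmKO. The ubiquitin ligase genes Fbxo32 and Trim63 fell with rapamycin in 9mTSCmKO, with log2 changes of -0.70 (SE 0.23, adjusted p = 0.0179) and -0.87 (SE 0.257, adjusted p = 0.00882), and in 3mTSCmKO, with -1.35 (SE 0.233, adjusted p = 3.27e-05) and -1.84 (SE 0.26, adjusted p = 1.52e-06). Myog therefore rose in the comparisons in which these 2 genes fell.

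Of the genes of differentiating and regenerating fibers, 7 were tested, of which 3 rose and 1 fell in 9mTSCmKO against 9mCON (median 0.89), where 37.9% of all genes were called (median -0.02). With rapamycin in 9mTSCmKO 2 rose and 2 fell (median -0.58), where 32.6% of all genes were called (median -0.04). Myh8, a perinatal myosin, fell with loss of Tsc1 at 9 months (log2 difference -0.67, SE 0.211, adjusted p = 0.0106) and rose with rapamycin there by 1.14 (SE 0.212, adjusted p = 7.03e-05). At 3 months, 3 of the 7 rose and 1 fell in 3mTSCmKO against 3mCON (median 0.54), where 19.8% of all genes were called (median -0.02). Actc1, the cardiac actin of immature fibers, rose in that comparison by 3.10 (SE 0.518, adjusted p = 2.95e-05). Mymk, which is needed for myoblast fusion, stayed below the filter, with 0.808 to 3.80 CPM in 9mTSCmKO and at most 0.551 CPM in any other library.

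The tested genes most like each of the 5 were found by Pearson r of log2 CPM over the 40 libraries, which share the differences between groups. For Myog they were Abra (r = 0.87), Bex1 (0.83) and Trp63 (0.80), and for Myf6 Chchd4 (0.85), Fth1 (0.85) and Arpc3 (0.85). For Pax7 they were Pik3r2 (0.81), Cant1 (0.75) and Pxylp1 (0.71), and for Myod1 Aurka (0.71), Rpa2 (0.69) and Morn4 (0.68). Myf5 had the lowest values, with Eva1b (0.61), Tead2 (0.58) and Pcyox1l (0.57). After removal of group means, the same pairs gave r between 0.42 (Myod1 with Morn4) and 0.80 (Myf6 with Chchd4).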

How the data were processed

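The authors isolated poly(A) RNA from EDL muscle and made directional single-end libraries, and per the study's methods and the submitters' processing notes reads were trimmed with cutadapt 1.9.1 and assigned by kallisto 0.43.1 with its stranded option to Ensembl protein-coding transcripts (GRCm38), with a read shared equally among the transcripts it hit and values summed per gene. The deposited tables hold estimated counts per gene, and TPM computed by the authors. The estimated counts stand as whole numbers in the deposited table, so that rounding them for the tests changed nothing. Groups came from the sample labels, and each library is 1 mouse.

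Genes with at least 1 CPM in 5 or more libraries (13543 genes with 99.8% or more of all counts in every library) were tested with edgeR 4.0.16 in R 4.3.3 (TMM factors, 8 group means over 40 libraries, robust quasi-likelihood F-tests, Benjamini-Hochberg adjustment over all genes, threshold 0.05), in 10 comparisons of groups and 3 interactions. Values per library are TMM-scaled CPM. Standard errors were derived from the F-statistics. Comparisons that share a group are not independent. Within-group correlations used deviations of log2 CPM from group means, 100000 two-sided permutations of libraries within groups and adjustment over 10 pairs (Python 3.11.15). Alternatives were other scaling factors, no low-count filter, DESeq2 1.42.0, limma 3.58.1 on log2(TPM + 0.5) and log2(TPM + 0.1), only the compared groups, a replicate block, insert size as a term, and leaving out each library. Counts were simulated for 9mTSCmKO against 9mCON with 200 changed of 13543 genes and all other groups at a common mean per gene. The fit called 74% of the changed genes at a log2 change of 1 and 96% at 2, with 4.49% false calls. In the data 37.9% of all genes were called in this comparison, so these rates need not hold there. They were not taken at the low counts of Myog, Myf5 and Pax7.

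Named genes were the 5 members, Tsc1, the 3 genes most like each member (highest Pearson r of log2 CPM over 40 libraries) and, from the 5 pathway lists, genes set by name whatever their values. Top2a, Birc5 and Mki67, of a marker list, fall outside this rule and were named after their values were seen. The members, the lists and the named genes were chosen with earlier results of these data known. Intervals and spreads of counting cover counting error only. Myh3 was not analysed here. Some genes of the lists are counted but not reported by name here.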

Additional observations from a re-analysis of the deposited data

Results flagged for a closer look

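In 8 of the 40 sets of 5 libraries (5 genes in 8 groups), 1 library stood apart from the other 4 of its group by Dixon's ratio of gap to range, where chance alone flags about 1 in 20 sets. For Myod1 these were 9mCON+RM replicate 2 (34.7 CPM, the highest of its group), 9mTSCmKO replicate 3 (21.1 CPM, the highest) and 9mTSCmKO+RM replicate 5 (8.72 CPM, the lowest). For Myf6 they were 9mTSCmKO replicate 3 (168 CPM) and 9mCON replicate 2 (102 CPM), each the highest of its group, and the latter was also the highest for Myog (3.17 CPM). For Myf5 they were 9mCON+RM replicate 3 (4.27 CPM, the highest) and 3mCON+RM replicate 2 (2.01 CPM, the lowest).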

How the results depend on the processing

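Each of 65 log2 differences (5 genes in 13 comparisons) was refitted under other settings and without each library. Of 620 refits under other settings, 569 kept direction and call, 14 lost a call, 21 gained one and 16 changed sign. Of 800 refits without 1 library, 726 kept both, 27 lost a call, 7 gained one and 40 changed sign. The cause of these changes was not tested.

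The number of all genes called also depended on the setting. From 3mTSCmKO to 9mTSCmKO it was 5064 of 13543, but 1702 with insert size as a term. With only the compared groups, it was 2710 in place of 5133 in 9mTSCmKO against 9mCON. In that setting it was 580 in place of 1604 for rapamycin in 9mCON, but 3769 in place of 2676 in 3mTSCmKO against 3mCON. The count of the 5 genes called changed as follows. In 9mTSCmKO against 9mCON it was 3, but 1 with no low-count filter (Myod1 and Myog lost) and 2 with DESeq2 size factors and limma at both pseudocounts (Myod1 lost) and with only these groups (Myog lost). In 3mTSCmKO against 3mCON it was 2 with upper-quartile factors, limma at both pseudocounts, the replicate block and insert size, where Myod1 was gained. In 9mTSCmKO+RM against 9mCON+RM it was 2 by limma at both pseudocounts, and in 3mTSCmKO+RM against 3mCON+RM 1 when only these groups were fitted. For rapamycin in 9mTSCmKO it was 3, but 1 with only these groups (Myf6 and Pax7 lost) and 2 with no filter, the replicate block, insert size and without both libraries that stood apart (Myf6 lost). In 3mTSCmKO it was 2, but 1 with upper-quartile factors and with insert size (Myf6 lost) and 3 with only these groups (Pax7 gained). For rapamycin in 9mCON it was 2 without both libraries that stood apart (9mCON replicate 2 and 9mTSCmKO replicate 3), a setting chosen after seeing the data. The genotype by age interaction gave 1 (Myog) with DESeq2, limma at both pseudocounts, the replicate block and without both libraries. The rapamycin by genotype interaction gave 1 at 9 months (Myf6) with limma and without both libraries, and at 3 months 1 with DESeq2 (Myog) and 1 with only these groups (Myf6). Without 1 library the count ran from 1 to 2 for genotype at each age and for rapamycin in 3mTSCmKO, from 1 to 3 for age in TSCmKO, and from 0 to 1 for the genotype by age interaction and the rapamycin by genotype interaction at 9 months.

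Only differences that had not passed changed sign. Under limma (TPM + 0.5, then + 0.1), Myod1 gave 0.0662 and 0.0711 for rapamycin in 3mTSCmKO, -0.0403 and -0.0422 in 9mCON, and -0.0091 and -0.0091 for age in CON, and Myf5 0.0554 and 0.0903 for the rapamycin by genotype interaction at 9 months. With insert size, age in CON gave 0.13 for Myog and 0.0064 for Pax7. With no filter, the genotype by age value of Myod1 was -0.0306. Without both libraries, Myf5 gave 0.0842 for rapamycin in 9mTSCmKO and 0.11 for the interaction at 9 months, Myf6 -0.0213 for age in CON, and Myod1 -0.15 for age in TSCmKO and -0.17 for genotype by age. Without 1 library, Pax7 ran from -0.0016 to 0.18 (genotype, 3 months) and -0.0029 to 0.41 (genotype under rapamycin, 9 months). Myf5 ran from -0.20 to 0.0841 (genotype under rapamycin, 3 months), -0.26 to 0.0788 (rapamycin, 9mTSCmKO), -0.42 to 0.10 (rapamycin, 9mCON), -0.0312 to 0.20 (rapamycin, 3mCON) and -0.23 to 0.31 (interaction, 9 months). Myod1 ran from -0.23 to 0.16 (rapamycin, 3mTSCmKO), -0.18 to 0.17 (rapamycin, 9mCON), -0.0078 to 0.13 (age, CON), -0.14 to 0.29 (age, TSCmKO), -0.22 to 0.22 (genotype by age) and -0.10 to 0.29 (interaction, 3 months). For age in CON, Myog ran from -0.43 to 0.0775 and Myf6 from -0.0213 to 0.30.

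Of 10 correlations within groups, 2 passed without the 2 farthest libraries, 2 within 3 months and 0 within 9 months. Those that changed sign had not passed: Myod1 with Myog (-0.0282, 3 months), Myod1 with Myf5 (0.0365, 9 months), Myog with Myf5 (-0.00098 in TPM, -0.31 at 3 months), Myf5 with Myf6 (0.0371 without 2 libraries, 0.16 at 9 months) and Myf6 with Pax7 (-0.10 in TPM, -0.38 at 3 months).

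Same-numbered libraries were not shown to be pairs. Their deviations correlated between -0.36 and 0.41, and in no comparison did all 5 exceed 0.1. In both genotype comparisons under rapamycin 3 of 5 exceeded 0.1, and this check cannot exclude pairs of littermates. With the replicate block, Myod1 at 3 months passed (-0.66, adjusted p = 0.0229), as did the Myog genotype by age value (1.81, adjusted p = 0.0422), and the fall of Myf6 with rapamycin in 9mTSCmKO did not (-0.43, adjusted p = 0.053); no other call changed with it. Depth limits Myog, Myf5 and Pax7 most. Genes of the lists were refitted only as counts per list, with DESeq2 size factors and with no low-count filter.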
